A study of Homo sapiens with 12 samples.

Results

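The 9 genes described here are grouped with transforming growth factor beta (TGF-beta) signaling. They are the ligands TGFB1 and TGFB2, the latent TGF-beta binding proteins LTBP1 and LTBP2, the receptors TGFBR1 and TGFBR2, and the signal transducers SMAD2, SMAD3 and SMAD7. The genes were taken by symbol from the 18417 genes read on the arrays, and all 9 were found. Of several probe sets of a gene, the one brightest on average across the 12 arrays was taken. Only SMAD2 had more than 1 probe set, so the measured level decided the choice for that gene alone. The list was drawn up with results of these arrays known, and a count over it is therefore a description.

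TGF-beta is secreted in a latent form, in which the ligand is held by its own propeptide and, in most cells, tethered by a latent TGF-beta binding protein to fibrillin fibers of the matrix. Integrins, thrombospondin and proteases release it. The free ligand binds the type II receptor TGFBR2, which recruits and phosphorylates the type I receptor TGFBR1. The type I receptor then phosphorylates SMAD2 and SMAD3, which enter the nucleus with SMAD4 and induce genes of matrix, contractility and feedback, among them the inhibitor SMAD7. In glioblastoma the pathway is known for immune suppression, invasion and a mesenchymal expression program.

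Transcripts were measured in A172, a line established from a human glioblastoma, on an array with probes along the exons of each gene. The groups were hHSS1 clone 8 and hHSS1 clone 7, both stably transfected with pcDNA3.1 carrying His-tagged hHSS1 (gene symbol EMC10, which encodes both a membrane-bound member of a complex that inserts proteins into the endoplasmic reticulum and a secreted form), the mock line stably transfected with empty pcDNA3.1, and untransfected wild-type cells. Each group held 3 cultures harvested on day 4. Each group is 1 line or 1 clone, so a p-value here measures the spread between cultures and not between independently made lines. Transfection, drug selection and the picking of a clone or line cannot be told apart in a comparison with wild-type cells.

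EMC10, the transfected gene, lay between 11.57 and 12.30 on the 6 clone arrays (log2 expression level), against 9.20 to 9.51 in mock and 10.43 to 11.13 in wild-type cells. The clones were thus above both controls on each array, and mock was below wild-type on each array. Medians over all probe sets of an array lay between 8.60 and 8.67. Of 9 glioma and astroglial markers, VIM and CD44 were above the median of all genes on all 12 arrays, whereas GFAP was below it on all 12 and AQP4, SLC1A3 and S100B were below the lower quartile on all 12. The summed log2 level of these 9 markers ranged from 79.88 to 81.94 in clone 8, 80.47 to 80.77 in clone 7, 81.53 to 82.0 in mock and 81.74 to 82.57 in wild-type cells. Mean NES was 8.98 in clone 8, 8.86 in clone 7, 9.65 in mock and 10.08 in wild-type cells, and mean SOX2 was 8.29, 8.33, 8.63 and 8.90. By contrast, CD44 and SLC1A3 had their lowest mean in wild-type cells, and GFAP its highest means in the clones. NES is on the study's own list of genes down-regulated in A172. The sum over 7 fibroblast or mesenchymal markers was 67.75 to 71.27 in clone 8, 68.81 to 71.17 in clone 7, 71.0 to 71.56 in mock and 73.56 to 74.48 in wild-type cells. Of these 7, COL1A1, COL1A2, COL3A1, PDGFRB and THY1 were above the median of all genes on all 12 arrays, and DCN was below the lower quartile on all 12. The part of these marker shifts in the differences below was not tested.

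A pair of clone arrays went against their labels. Over all genes, the array labelled clone 7 replicate 3 was nearest to clone 8 replicate 2, with a root-mean-square log2 difference of 0.115 and 0 genes at least 2-fold apart. It differed from clone 7 replicates 1 and 2 by 0.257 and 0.266, with 142 and 146 genes at least 2-fold apart. The array labelled clone 8 replicate 3 was nearest to clone 7 replicate 1 (0.157, 0 genes at least 2-fold apart), and it was 0.292 and 0.311 from clone 8 replicates 1 and 2, with at least 165 genes that far apart. The labels were kept. A mean over all 6 clone arrays does not depend on which clone an array is labelled as, but the spread within a clone and every value for a single clone do. All groups share 1 estimate of the spread in the fit. The labels thus also bear on the error and p-value of each comparison, mock against wild-type among them. Results are therefore also given without both arrays, a choice made after seeing the data. Since they were picked for lying apart from their own clone, leaving them out narrows the spread within each clone. P-values without them are thus too small, and values of a single clone without them are a description with no test.

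**Figure D1:**
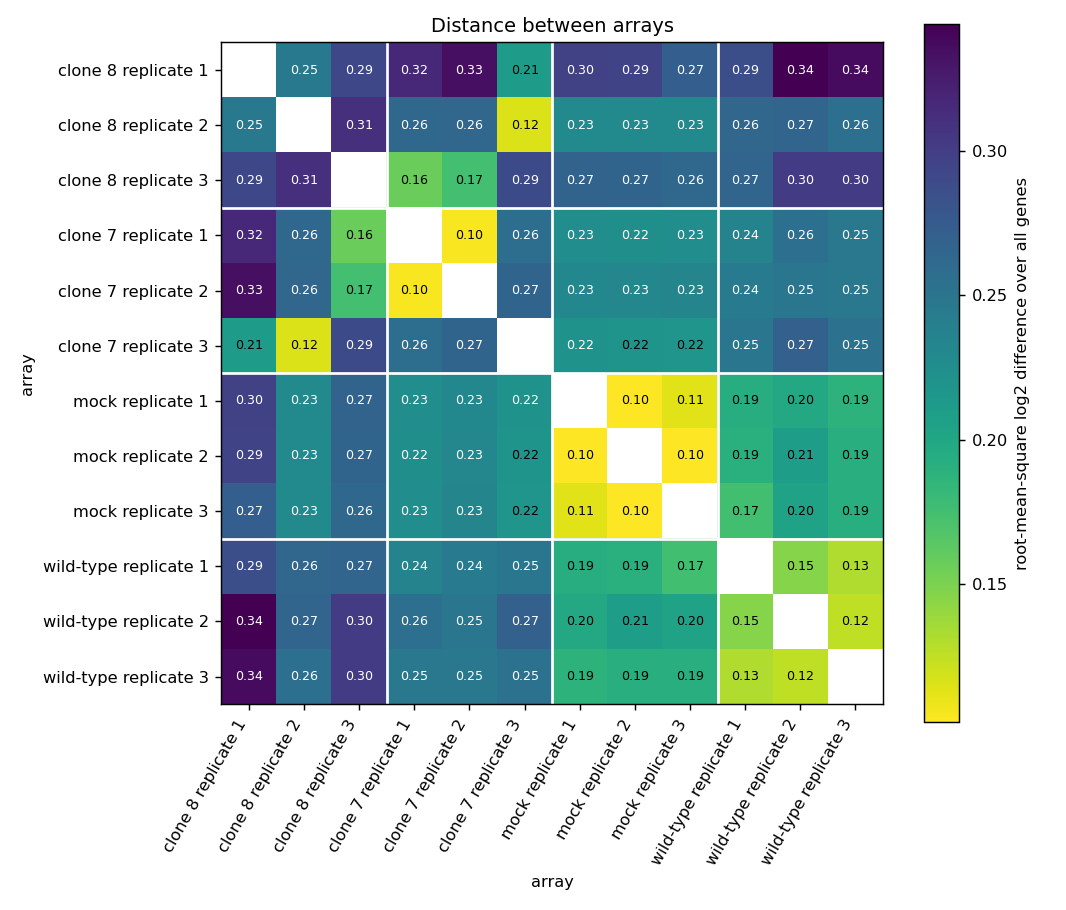
Root-mean-square log2 difference over all genes (color and printed value) between each pair of the 12 arrays (both axes), with white lines between the groups. The array labelled clone 7 replicate 3 is closest to clone 8 replicate 2 (0.115), and the array labelled clone 8 replicate 3 is closest to clone 7 replicate 1 (0.157).

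Levels below are log2 expression levels of 1 probe set as deposited, and are not compared between genes. Differences are log2 differences between group means ± SE from limma over all 12 arrays, with Benjamini-Hochberg adjustment over all 18417 genes. A gene is said to have risen or fallen at an adjusted p under 0.05, and is called where the difference is also at least 1.5-fold. In mock against wild-type, which holds no clone array, 413 genes passed the adjusted p with all arrays fitted. There were 1302 without the 2 arrays that went against their labels, and 1951 with only the arrays compared fitted. An array reads RNA pooled over a culture, so less RNA per cell and fewer cells with the transcript cannot be told apart.

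The ligand genes differed in their order of levels. TGFB2 (chromosome 1, probe set 7909789), the isoform first purified from glioblastoma cells as a suppressor of T cells, was at 13.34, 13.45 and 13.39 in clone 8, 13.41, 13.44 and 13.46 in clone 7, 13.48, 13.46 and 13.49 in mock, and 13.06, 13.07 and 13.02 in wild-type cells. Each of the 9 transfected cultures was above each wild-type culture. TGFB2 rose 1.34-fold in mock against wild-type (log2 0.43 ± 0.05, adjusted p = 9.88e-04) and 1.29-fold in the clones against wild-type (log2 0.36 ± 0.05, adjusted p = 4.46e-04). In the clones against mock its difference was log2 -0.06 ± 0.05 (95% confidence interval -0.16 to 0.04, adjusted p = 0.521), and the groups overlapped.

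TGFB1 (chromosome 19, probe set 8037005), the most widely expressed isoform, was at 11.05, 11.13 and 11.25 in clone 8, 11.13, 11.25 and 11.07 in clone 7, 11.11, 10.95 and 10.88 in mock, and 11.13, 11.33 and 11.24 in wild-type cells. The mock mean was lowest and all 3 mock cultures lay under the lowest wild-type culture, while the clones overlapped both controls. Its differences did not pass the adjusted p in mock against wild-type (log2 -0.26 ± 0.08, adjusted p = 0.169), in the clones against mock (log2 0.17 ± 0.07, adjusted p = 0.211) or in the clones against wild-type (log2 -0.09 ± 0.07, adjusted p = 0.473). In mock against wild-type TGFB1 passed only with the arrays compared fitted alone (adjusted p = 0.0401) or with array weights (adjusted p = 0.0102).

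Both binding protein genes were higher in the clones than in either control, with different spread. LTBP2 (chromosome 14, probe set 7980152) encodes a matrix protein that is grouped with this family by sequence but does not bind latent TGF-beta. It was at 9.85, 9.77 and 9.90 in clone 8, 9.80, 9.80 and 9.72 in clone 7, 9.30, 9.20 and 9.22 in mock, and 9.26, 9.30 and 9.28 in wild-type cells. The lowest clone array was 9.72 and the highest control array 9.30, so the groups did not overlap. LTBP2 rose 1.48-fold in the clones against mock (log2 0.56 ± 0.05, adjusted p = 7.05e-05) and 1.44-fold in the clones against wild-type (log2 0.53 ± 0.05, adjusted p = 5.70e-05). Mock and wild-type differed by log2 -0.04 ± 0.06 (95% confidence interval -0.16 to 0.09, adjusted p = 0.912). LTBP2 stands on the study's own list of genes up-regulated in A172, so its direction is not independent evidence.

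LTBP1 (chromosome 2, probe set 8041383) encodes the protein that carries latent TGF-beta into the matrix. It was at 10.16, 10.52 and 9.68 in clone 8, 9.79, 9.78 and 10.48 in clone 7, 9.55, 9.45 and 9.50 in mock, and 9.47, 9.57 and 9.46 in wild-type cells. Each clone array was above each control array, and the 6 clone arrays split into 3 between 9.68 and 9.79 and 3 between 10.16 and 10.52. The array labelled clone 8 replicate 3 was the lowest of the 6, and the array labelled clone 7 replicate 3 was in the higher 3. The difference of the clones from mock was log2 0.57 ± 0.17 (1.48-fold, adjusted p = 0.0773), and from wild-type log2 0.57 ± 0.17 (1.49-fold, adjusted p = 0.0584). Without the 2 arrays that went against their labels the differences were log2 0.56 ± 0.08 against mock and log2 0.57 ± 0.08 against wild-type. The adjusted p by limma (8.30e-04 and 5.17e-04) is then too small and is no test, since the choice of those arrays narrows the spread. With clone 8 replicate 3 alone left out LTBP1 passed against mock (log2 0.68, adjusted p = 0.0149), as it did with array weights (log2 0.47, adjusted p = 0.00502). Since clone 8 replicate 3 is 1 of the 2 arrays that went against their labels, leaving it out narrows the spread too and is no test. Counting the fit without both arrays, LTBP1 passed against mock under 3 of 21 alternatives. Under the other 18 it did not pass, with an adjusted p of up to 0.254. Mock and wild-type differed by less than that spread (log2 0.00 ± 0.20, adjusted p = 0.998).

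**Figure D2:**
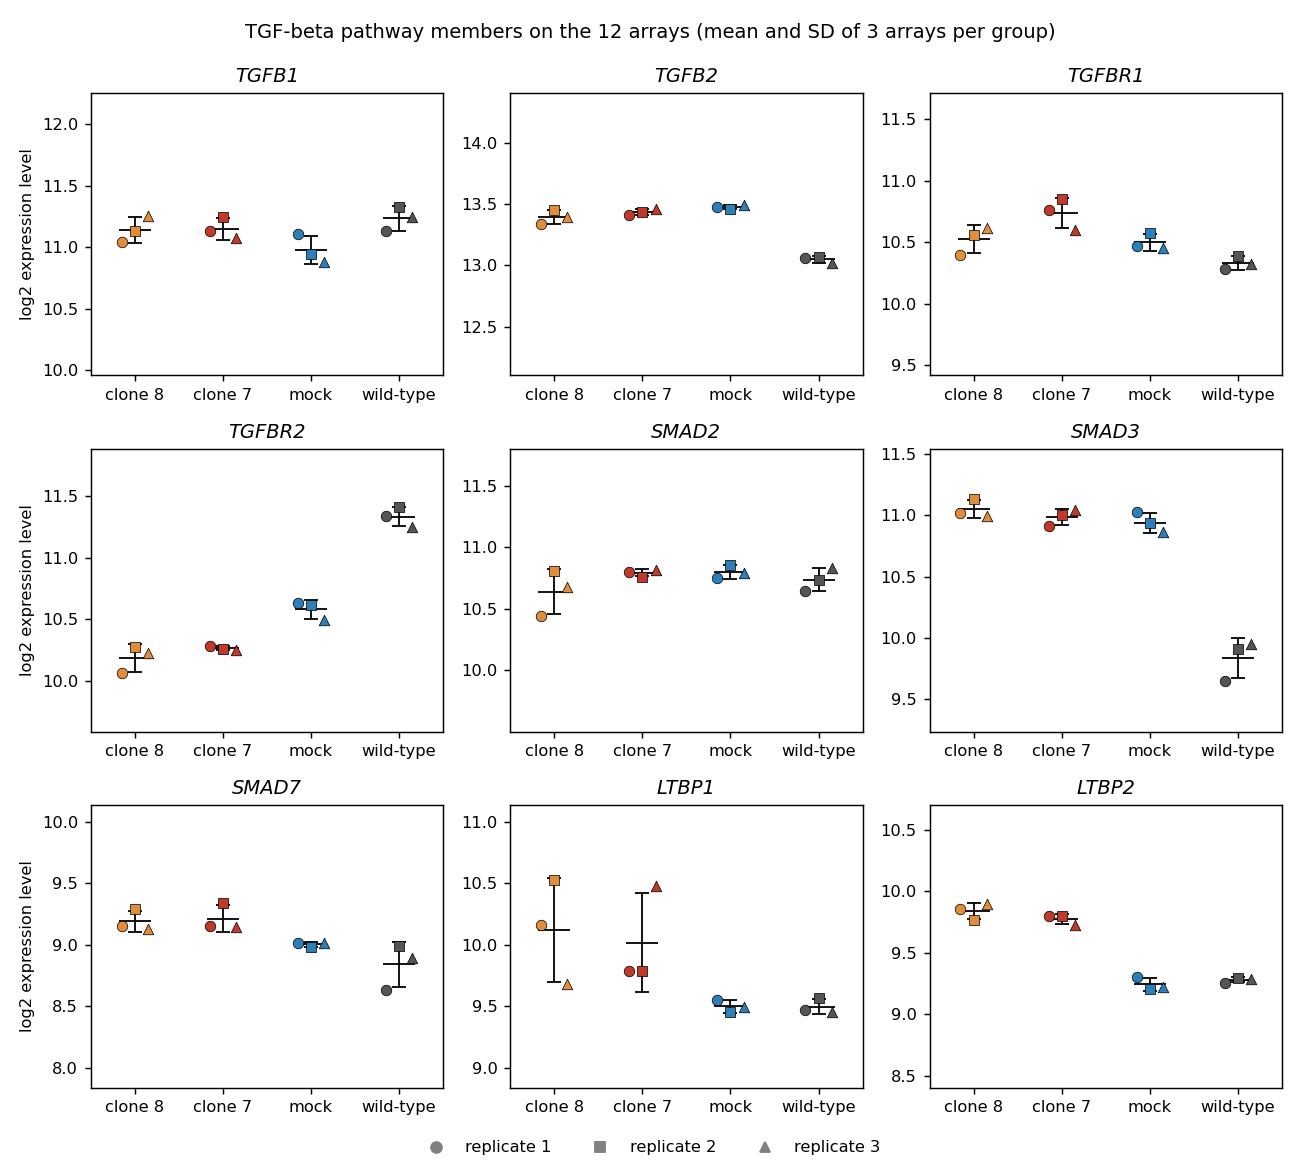
Log2 expression level (vertical axis, the same span in each panel) of the 9 genes in clone 8, clone 7, mock and wild-type cells (horizontal axis), with 1 point per array, the symbol giving the replicate, and a bar for the mean and SD of 3 arrays. Wild-type stands apart for TGFBR2 (11.25 to 11.41) and SMAD3 (9.65 to 9.95), the clones stand apart for LTBP2 (9.72 to 9.90), and LTBP1 splits the 6 clone arrays.

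In the clones against wild-type the receptor genes moved in opposite directions. TGFBR2 (chromosome 3, probe set 8078350), which encodes the ligand-binding type II receptor, was at 10.06, 10.28 and 10.22 in clone 8, 10.28, 10.26 and 10.25 in clone 7, 10.63, 10.62 and 10.49 in mock, and 11.34, 11.41 and 11.25 in wild-type cells. The levels formed 3 steps without overlap, with wild-type highest, mock in between and the clones lowest, and neither clone lay apart from the other. TGFBR2 fell in the clones to 46.4% of the wild-type level (log2 -1.11 ± 0.06, adjusted p = 9.77e-07) and was called lower. It was also called lower in mock, at 59.4% of wild-type (log2 -0.75 ± 0.07, adjusted p = 1.26e-04). In the clones against mock it fell to 78.2% of the mock level (log2 -0.36 ± 0.06, adjusted p = 0.00544), which is under 1.5-fold.

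TGFBR1 (chromosome 9, probe set 8156826), which encodes the type I receptor kinase, was at 10.40, 10.56 and 10.62 in clone 8, 10.77, 10.85 and 10.60 in clone 7, 10.47, 10.58 and 10.45 in mock, and 10.28, 10.39 and 10.32 in wild-type cells. The clone arrays spanned 10.40 to 10.85 and all lay above the wild-type arrays, while clone 8 and mock overlapped. TGFBR1 rose 1.23-fold in the clones against wild-type (log2 0.30 ± 0.07, adjusted p = 0.0168). This was lost without wild-type replicate 1 (adjusted p = 0.0727) or wild-type replicate 3 (adjusted p = 0.0801). Its differences were log2 0.13 ± 0.07 in the clones against mock (adjusted p = 0.319) and log2 0.17 ± 0.08 in mock against wild-type (adjusted p = 0.436). In mock against wild-type it passed only with array weights (adjusted p = 0.0371).

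Of the SMAD genes, SMAD3 held the largest difference among the 9 genes, in the clones against wild-type. SMAD3 (chromosome 15, probe set 7984364), a receptor-activated SMAD that binds DNA directly, was at 11.02, 11.13 and 10.99 in clone 8, 10.91, 11.00 and 11.04 in clone 7, 11.02, 10.93 and 10.86 in mock, and 9.65, 9.91 and 9.95 in wild-type cells. The 9 transfected cultures lay together between 10.86 and 11.13, above all 3 wild-type cultures. SMAD3 was called higher in mock against wild-type, at 2.15-fold (log2 1.10 ± 0.08, adjusted p = 2.44e-05), and in the clones against wild-type, at 2.27-fold (log2 1.18 ± 0.07, adjusted p = 1.92e-06). Between the clones and mock the difference was log2 0.08 ± 0.07 (95% confidence interval -0.08 to 0.24, adjusted p = 0.618).

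SMAD2 (chromosome 18, probe set 8023195), the other receptor-activated SMAD, was at 10.44, 10.80 and 10.68 in clone 8, 10.80, 10.76 and 10.82 in clone 7, 10.75, 10.86 and 10.79 in mock, and 10.65, 10.74 and 10.83 in wild-type cells. All groups overlapped, and its differences were log2 -0.08 ± 0.07 in the clones against mock (adjusted p = 0.607) and log2 0.06 ± 0.09 in mock against wild-type (adjusted p = 0.897). The second SMAD2 probe set, 8023191, was dimmer and more variable, from 9.86 to 10.65 in clone 8, 9.99 to 10.55 in clone 7, 10.08 to 10.38 in mock and 10.34 to 10.53 in wild-type cells. Averaging both probe sets turned the sign in mock against wild-type (log2 -0.05).

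SMAD7 (chromosome 18, probe set 8023220) encodes the inhibitory SMAD that TGF-beta itself induces and that blocks and degrades the type I receptor. It was at 9.15, 9.29 and 9.13 in clone 8, 9.15, 9.34 and 9.14 in clone 7, 9.02, 8.98 and 9.01 in mock, and 8.63, 8.99 and 8.89 in wild-type cells. Each clone array was above each control array, while mock overlapped wild-type. SMAD7 rose 1.28-fold in the clones against wild-type (log2 0.36 ± 0.08, adjusted p = 0.0128), which was lost without wild-type replicate 1, the lowest array (log2 0.26, adjusted p = 0.060). Against mock the difference was log2 0.20 ± 0.08 (adjusted p = 0.175). SMAD7 was above the median of all genes on 2 of 12 arrays, LTBP2 on 11, and the other 7 genes on all 12.

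**Figure D3:**
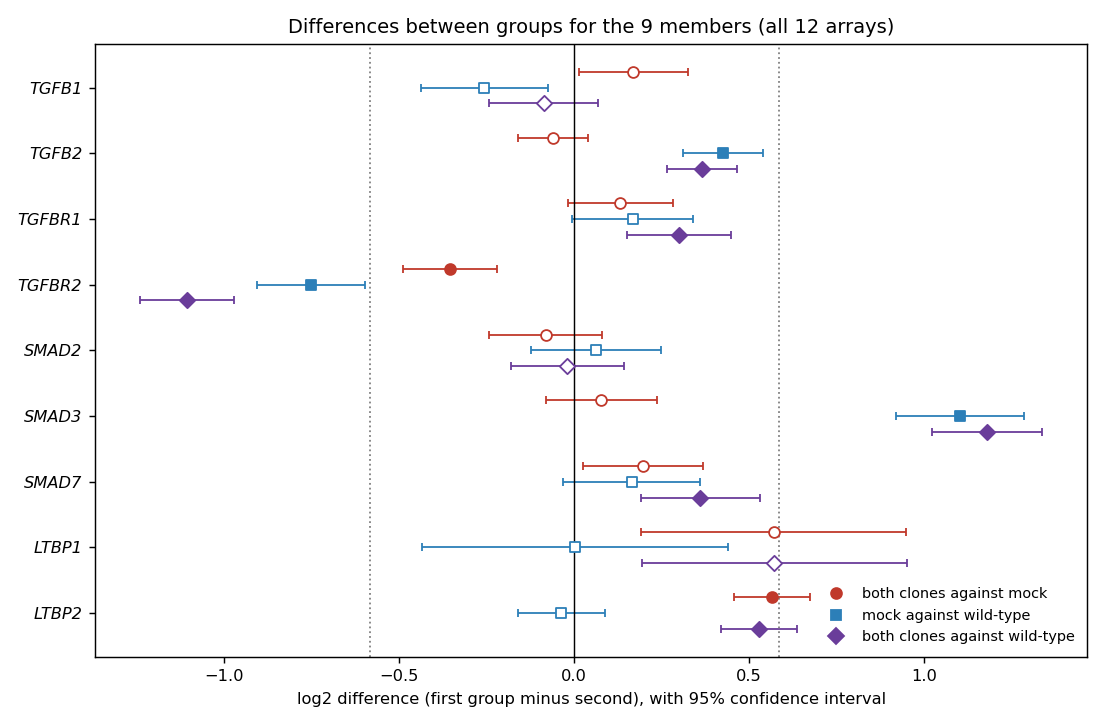
Log2 difference (horizontal axis) with its 95% confidence interval for the 9 genes (vertical axis) in 3 comparisons, the clones against mock, mock against wild-type cells and the clones against wild-type cells, from all 12 arrays. Filled symbols passed an adjusted p under 0.05 and dotted lines mark 1.5-fold, with SMAD3 (log2 1.10 and 1.18) and TGFBR2 (log2 -0.75 and -1.11) past the lines against wild-type only.

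Counted over the list, the clones differed from mock at an adjusted p under 0.05 in 1 gene higher (LTBP2, against 2.87% of all genes) and 1 lower (TGFBR2, against 3.51%), together against 6.38% of all genes, and in 0 called genes, against 0.728%. Groups did not overlap in 3 genes higher in the clones (LTBP1, LTBP2 and SMAD7, against 5.77% of all genes) and in 1 lower (TGFBR2, against 8.39%). The median difference of the 9 genes was log2 0.13, and that of all genes log2 0.01. Without the 2 arrays that went against their labels, LTBP1 joined, which gave 2 genes higher and 1 lower, against 13.1% of all genes. That count is no test, since p-values without those arrays are too small.

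In mock against wild-type, 2 genes rose (SMAD3 and TGFB2, against 1% of all genes) and 1 fell (TGFBR2, against 1.24%), together against 2.24% of all genes, and 2 of the 9 were called, SMAD3 higher and TGFBR2 lower, against 0.673%. Groups did not overlap in 3 genes higher in mock, against 15.6% of all genes, and in 2 lower, against 13.3%. In the clones against wild-type, 5 genes rose (SMAD3, LTBP2, TGFB2, SMAD7 and TGFBR1, against 4.63% of all genes) and 1 fell (TGFBR2, against 5.32%), together against 9.95% of all genes, and SMAD3 and TGFBR2 were called, against 1.58%. Groups did not overlap in 6 genes higher in the clones, against 6.88%, and in 1 lower, against 8.38%. These comparisons share the clone, mock or wild-type arrays with one another.

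The clones were also taken singly. LTBP2 rose in clone 8 against mock (log2 0.60 ± 0.06, 1.51-fold, adjusted p = 2.59e-04) and was the 1 gene of the 9 called there, against 0.76% of all genes. That call rested on a difference just over 1.5-fold and was lost without mock replicate 2 (log2 0.58), without clone 8 replicate 3 (log2 0.57) and without the 2 arrays that went against their labels (log2 0.57). In clone 7 against mock LTBP2 rose 1.44-fold (log2 0.53 ± 0.06, adjusted p = 5.50e-04), and 0 of the 9 genes were called, against 0.7%. TGFBR2 fell in clone 8 against mock (log2 -0.39 ± 0.07, adjusted p = 0.00995) and in clone 7 against mock (log2 -0.32 ± 0.07, adjusted p = 0.0332). LTBP2 and TGFBR2 were thus the 2 genes past the adjusted p in each clone, against 5.09% of all genes in clone 8 and 3.14% in clone 7. The adjusted p of TGFBR2, unlike that of LTBP2, was above 0.05 without mock replicate 1 or 2 in both clones. It was 0.0558 and 0.0617 in clone 8 and 0.147 and 0.150 in clone 7. For TGFBR2 it was also above 0.05 in clone 8 with the 6 arrays compared fitted alone (0.0834). In clone 7 the same held without mock replicate 3, without wild-type replicate 1 or without any 1 clone 7 array (0.0511 to 0.123).

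Between clone 8 and clone 7, 0 of 18417 genes passed an adjusted p under 0.05 by limma on all 12 arrays (0%), and 1328 (7.21%) had an unadjusted p under 0.05. Without the 2 arrays that went against their labels the clones were further apart, which the choice of those arrays fixes, so no p is given. LTBP1, at 10.16 and 10.52 in clone 8 and 9.79 and 9.78 in clone 7, then differed by log2 0.55 ± 0.10 in clone 8 against clone 7, and by log2 0.84 ± 0.09 in clone 8 and log2 0.29 ± 0.09 in clone 7 against mock. TGFBR1, at 10.40 and 10.56 in clone 8 and 10.77 and 10.85 in clone 7, differed by log2 -0.33 ± 0.08 in clone 8 against clone 7, and by log2 -0.02 ± 0.07 in clone 8 and log2 0.31 ± 0.07 in clone 7 against mock. The remaining 7 genes differed between the clones by log2 -0.16 to 0.12.

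The promoters of the 3 genes with the clearest steps between groups are shown, since TGFBR2, SMAD3 and LTBP2 carry most of the differences above. Each is the run of 250 bases before the outermost annotated start in RefSeq (GRCh38.p14), at chr3:30606106-30606355 (+ strand) for TGFBR2, chr15:67065352-67065601 (+ strand) for SMAD3 and chr14:74612238-74612487 (- strand) for LTBP2. Capitals mark the GC box GGGCGG, read on both strands, which SP1 binds.
TGFBR2: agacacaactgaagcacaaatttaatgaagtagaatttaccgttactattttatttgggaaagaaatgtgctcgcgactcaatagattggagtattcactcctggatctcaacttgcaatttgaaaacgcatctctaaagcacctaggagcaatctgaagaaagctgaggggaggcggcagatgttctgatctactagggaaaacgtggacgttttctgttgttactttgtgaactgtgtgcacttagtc
SMAD3: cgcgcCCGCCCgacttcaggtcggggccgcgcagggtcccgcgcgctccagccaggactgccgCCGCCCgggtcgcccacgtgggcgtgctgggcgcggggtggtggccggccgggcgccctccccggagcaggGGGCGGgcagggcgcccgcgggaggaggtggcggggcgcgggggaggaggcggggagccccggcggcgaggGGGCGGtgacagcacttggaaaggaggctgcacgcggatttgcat
LTBP2: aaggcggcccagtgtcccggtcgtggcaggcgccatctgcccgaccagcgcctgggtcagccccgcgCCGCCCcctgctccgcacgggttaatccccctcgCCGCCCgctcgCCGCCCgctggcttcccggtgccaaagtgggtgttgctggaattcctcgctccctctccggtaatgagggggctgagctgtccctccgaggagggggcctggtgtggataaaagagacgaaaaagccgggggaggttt
SMAD3 held 4 GC boxes with 80.8% G and C, LTBP2 held 3 with 68.8%, and TGFBR2 held 0 with 40.8%. Of all 27305 promoters of that length, 42.2% held at least 1. The SMAD core CAGAC, which SMAD3 and SMAD4 bind, was in none of these 3 windows and in those of TGFB2, SMAD7 and LTBP1, thus in 3 of 9 genes, against 37.9% of all promoters. The AP-1 site TGANTCA was in 0 of the 9 windows, against 6.6% of all, and TATAAA in that of TGFB2 alone, against 11.2%. No other motif was searched, and the arrays do not read which start a cell uses.

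The wider pathway was read from 6 lists of 127 genes, of which 123 were measured. The lists were chosen with earlier results of these data known, so counts over them are a description. In the clones against mock, 13 of the 123 rose and 2 fell, which is 12.2% against 6.38% of all genes, and 4 were called, all higher, against 0.728% of all genes. The median difference was log2 0.06, against log2 0.01 over all genes. With any 1 mock array left out, 7 rose and 0 to 1 fell. The number of all genes past the adjusted p was then 367 to 454, against 1175 with all arrays. Without the 2 arrays that went against their labels, where p-values are too small, 19 rose and 7 fell, against 13.1% of all genes. In mock against wild-type, 7 of the 123 rose and 3 fell, which is 8.13% against 2.24% of all genes. Without the same 2 arrays, 14 rose and 14 fell in that comparison, against 7.07% of all genes. The genes named below were those called and the up to 3 with the largest difference past the adjusted p in each list. ITGB8, TGFBI, CDKN1A and TPM1 were added after their values were seen.

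Among 17 other ligands, 1 rose in the clones against mock and 0 fell (5.88%, against 6.38% of all genes). GDF15, a stress-induced distant member of the family, was at 12.38, 12.39 and 12.46 in clone 8, 12.37, 12.38 and 12.34 in clone 7, 11.98, 11.92 and 11.85 in mock, and 10.90, 11.02 and 11.06 in wild-type cells. The groups formed 3 steps that ran opposite to those of TGFBR2, with the clones highest and wild-type lowest. It rose 1.39-fold in the clones against mock (log2 0.47 ± 0.05, adjusted p = 4.11e-04) and was called higher in mock against wild-type (log2 0.92 ± 0.06, 1.90-fold, adjusted p = 8.89e-06).

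Among 23 genes of latency and activation, 4 rose and 0 fell in the clones against mock (17.4%, against 6.38% of all genes). ITGB5, a beta subunit of an integrin that releases TGF-beta, rose by log2 0.41 ± 0.06 (adjusted p = 0.00151). LTBP3, a binding protein of latent TGF-beta, rose by log2 0.38 ± 0.06 (adjusted p = 0.00259), and ITGB8, a beta subunit of another such integrin, by log2 0.28 ± 0.06 (adjusted p = 0.0151). FBN1, the fibrillin to which latent complexes are tethered, was at 12.01, 12.12 and 12.38 in clone 8, 12.39, 12.37 and 12.16 in clone 7, 11.91, 11.80 and 11.83 in mock, and 12.90, 13.01 and 12.90 in wild-type cells. Wild-type was highest, mock lowest and the clones in between, with no overlap. FBN1 rose in the clones against mock (log2 0.39 ± 0.08, adjusted p = 0.0150), which was lost without any 1 mock array (adjusted p = 0.0515 to 0.0947), and it was called lower in mock against wild-type (log2 -1.09 ± 0.09, adjusted p = 6.33e-05). LTBP3 rose in mock against wild-type by log2 0.29 ± 0.07 (adjusted p = 0.0446), which was lost under 8 of 21 alternatives.

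Of 12 other receptors and co-receptors, 1 rose in the clones against mock and 0 fell (8.33%, against 6.38% of all genes). That gene, ACVR1C, a type I receptor for activin and Nodal, was dim (7.51 to 7.64 in the clones, 7.26 to 7.43 in mock) and rose by log2 0.21 ± 0.05 (adjusted p = 0.0318), which it did not pass under 9 of 21 alternatives. Of 11 other SMADs and partners, 1 fell and 0 rose (9.09%, against 6.38%). SMAD1, which transduces bone morphogenetic protein signals, was at 9.98, 10.13 and 9.85 in clone 8, 9.84, 9.93 and 10.10 in clone 7, 10.33, 10.37 and 10.33 in mock, and 10.62, 10.62 and 10.63 in wild-type cells. It fell in the clones against mock (log2 -0.37 ± 0.07, adjusted p = 0.00857), but not once mock replicate 2 was left out (adjusted p = 0.0620). Of 22 inhibitors of the pathway, 0 passed the adjusted p in the clones against mock (against 6.38% of all genes), at a median of log2 0.02. In mock against wild-type 1 of the 22 did (4.55%, against 2.24% of all genes), NEDD4L, a ubiquitin ligase that acts on SMAD2 and SMAD3, which was called higher (log2 0.68 ± 0.12, 1.61-fold, adjusted p = 0.00851). It lost that call without mock replicate 1 (adjusted p = 0.0502).

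**Figure D4:**
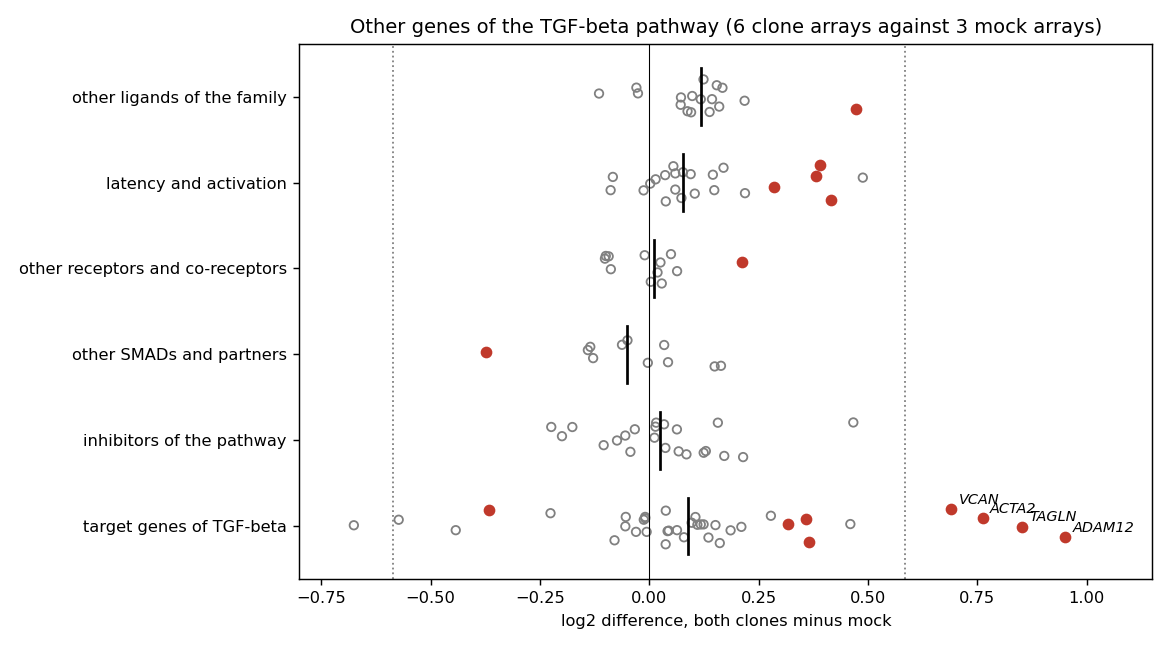
Log2 difference of both clones minus mock (horizontal axis) for 123 measured genes in 6 lists of the wider pathway (vertical axis, spread within a list at random), from 6 clone arrays and 3 mock arrays. Filled red points passed an adjusted p under 0.05, black bars are list medians, dotted lines mark 1.5-fold, and the 4 named target genes were called higher.

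Of 38 measured target genes of TGF-beta, 7 rose and 1 fell in the clones against mock, which is 21.1% against 6.38% of all genes. The 4 called were ADAM12, TAGLN, ACTA2 and VCAN. The excess over all genes was not particular to the clones. In mock against wild-type, 4 of the 38 rose and 2 fell, which is 15.8% against 2.24% of all genes. Without the 2 arrays that went against their labels, where p-values are too small, 6 rose and 9 fell there, against 7.07% of all genes. ACTA2, smooth muscle actin, was at 11.52, 11.49 and 10.96 in clone 8, 11.02, 10.97 and 11.52 in clone 7, 10.54, 10.48 and 10.43 in mock, and 9.77, 9.87 and 10.01 in wild-type cells. The clones were highest and wild-type lowest without overlap, and ACTA2 rose 1.70-fold in the clones against mock (log2 0.76 ± 0.14, adjusted p = 0.00685). ACTA2 is on the study's own list of genes up-regulated in A172, so its direction is not independent evidence.

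TAGLN, the actin-binding protein transgelin, was at 9.91, 9.94 and 10.57 in clone 8, 10.47, 10.57 and 10.02 in clone 7, 9.42, 9.32 and 9.44 in mock, and 10.10, 10.05 and 10.27 in wild-type cells. Mock stood alone as the lowest, and the clones overlapped wild-type. TAGLN rose 1.81-fold in the clones against mock (log2 0.85 ± 0.15, adjusted p = 0.00544) and was called lower in mock against wild-type (log2 -0.75 ± 0.17, adjusted p = 0.0419), a call lost under 8 of 21 alternatives, among them without any 1 mock or wild-type array (adjusted p = 0.113 to 0.180). The clones and wild-type differed by log2 0.10 ± 0.15 (adjusted p = 0.687).

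VCAN, the matrix proteoglycan versican, was at 10.69, 10.93 and 10.34 in clone 8, 10.43, 10.39 and 10.87 in clone 7, 9.94, 9.95 and 9.86 in mock, and 9.55, 9.80 and 9.68 in wild-type cells. ADAM12, a membrane metalloprotease, was at 9.80, 10.23 and 9.24 in clone 8, 9.39, 9.35 and 10.06 in clone 7, 8.73, 8.70 and 8.75 in mock, and 8.98, 9.04 and 9.05 in wild-type cells. Each clone array was above each control array for both genes. For VCAN, ADAM12, ACTA2 and TAGLN alike, replicate 3 of each clone lay with replicates 1 and 2 of the other clone. VCAN rose 1.61-fold in the clones against mock (log2 0.69 ± 0.13, adjusted p = 0.0083) and ADAM12 1.93-fold (log2 0.95 ± 0.19, adjusted p = 0.0116). VCAN did not pass once mock replicate 3 was left out (adjusted p = 0.0526), nor ADAM12 with any 1 mock array left out (adjusted p = 0.0557 to 0.0675).

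The other target genes that rose were TGFBI (log2 0.37 ± 0.06, adjusted p = 0.00330), CDKN1A (log2 0.36 ± 0.08, adjusted p = 0.0166) and TPM1 (log2 0.32 ± 0.06, adjusted p = 0.00849). The 1 that fell was TIMP3, an inhibitor of metalloproteases (log2 -0.37 ± 0.10, adjusted p = 0.0451). It rose in mock against wild-type (log2 0.48 ± 0.11, adjusted p = 0.0468), and these results were lost under 13 and 10 of 21 alternatives. Against wild-type, the fibrillar collagen gene COL1A1 was called lower in mock, with levels of 9.74 to 9.78 in mock and 10.41 to 10.52 in wild-type cells (log2 -0.72 ± 0.10, adjusted p = 0.00188). COL1A2 (11.62 to 11.75 in mock, 12.65 to 12.80 in wild-type cells) and COL3A1 (11.35 to 11.38 and 12.11 to 12.18) were also lower in mock without overlap. Neither was called in that comparison.

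Several targets and activators split the 6 clone arrays into the same 2 sets as LTBP1 did. The 4 shown were chosen after their values were seen, and they ran opposite to LTBP1, low where it was high. POSTN, the matrix protein periostin, was at 8.21, 8.90 and 11.87 in clone 8, 11.96, 12.02 and 8.78 in clone 7, 10.74, 10.75 and 10.71 in mock, and 12.76, 12.75 and 12.57 in wild-type cells. Mock lay between the 2 sets of clone arrays, and the arrays labelled clone 8 replicate 3 and clone 7 replicate 3 each lay with the other clone. The clone arrays split in the same way for COL1A2 (10.04, 10.22 and 12.02 in clone 8, 12.09, 12.10 and 10.17 in clone 7, and 11.62 to 11.75 in mock) and for THBS1, the thrombospondin that activates TGF-beta. They also did for COL3A1 (10.11, 10.07 and 11.28 in clone 8, 11.28, 11.34 and 10.04 in clone 7), for which mock, at 11.35 to 11.38, lay above each clone array. The clones against mock gave no call for any of the 4, with adjusted p of 0.218 to 0.814. Other genes of the wider lists, also picked by their values, ran in the direction of LTBP1. PMEPA1 was at 11.09, 11.33 and 10.35 in clone 8 and 10.49, 10.42 and 11.26 in clone 7. CNN1 was at 9.57, 9.60 and 9.21 in clone 8 and 9.14, 9.13 and 9.61 in clone 7.

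**Figure D5:**
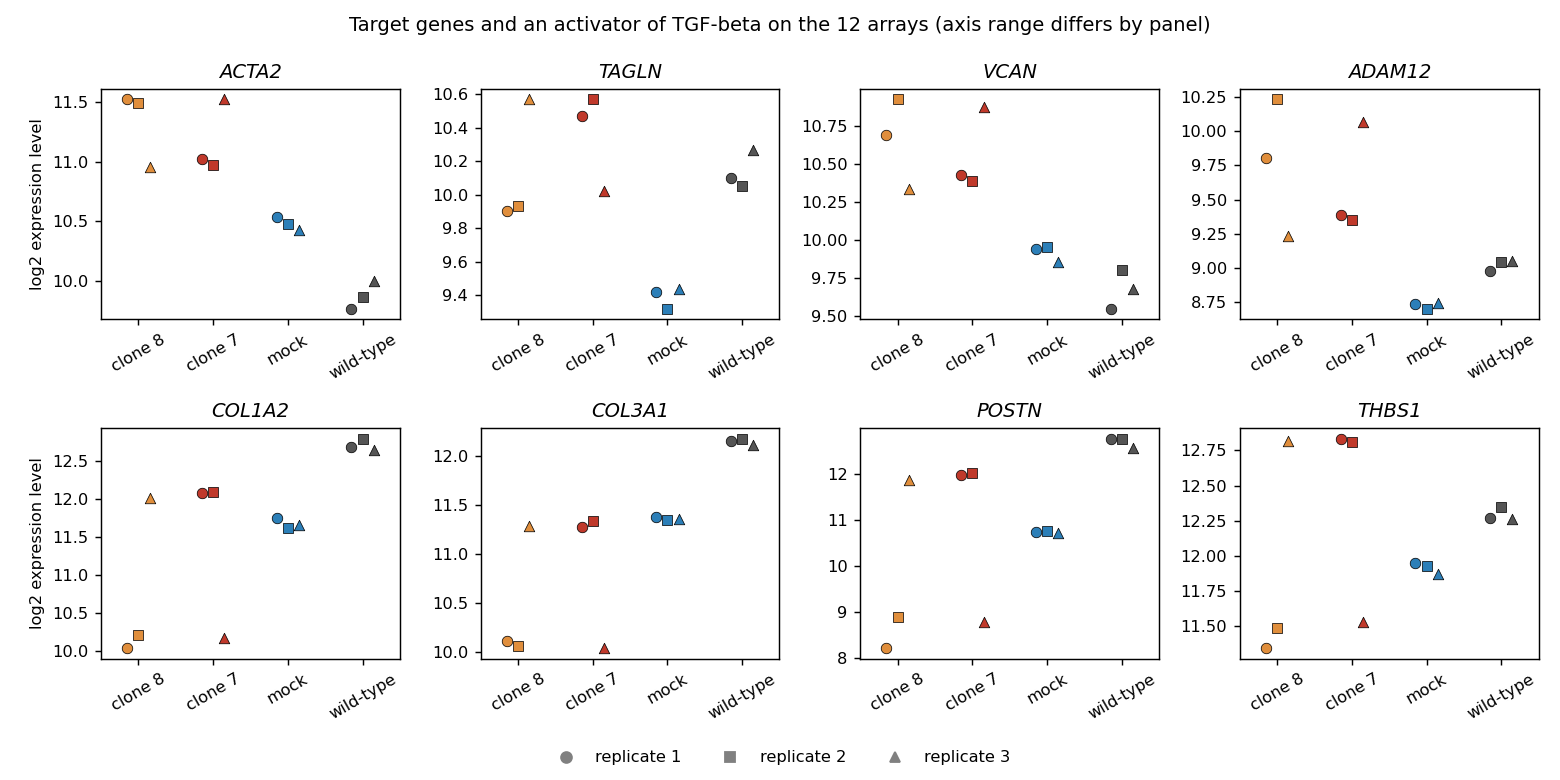
Log2 expression level (vertical axis, range differing by panel) of 7 target genes of TGF-beta and its activator THBS1 in clone 8, clone 7, mock and wild-type cells (horizontal axis), with 1 point per array and the symbol giving the replicate. Replicate 3 of each clone lies with replicates 1 and 2 of the other clone for each gene shown, the called genes ACTA2, TAGLN, VCAN and ADAM12 among them.

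For the 4 genes whose group means spanned at least 1.5-fold, the genes most like them were found by the root-mean-square difference of centred log2 levels over the 12 arrays, as a description. TGFBR2 was nearest to OSR1, a zinc finger transcription factor (0.104), the oxidase AOX1 (0.125) and STARD13, which restrains RHOA (0.140). OSR1 was at 8.98 to 9.29 in clone 8, 9.04 to 9.16 in clone 7, 9.36 to 9.60 in mock and 10.02 to 10.25 in wild-type cells, the same 3 steps. SMAD3 was nearest to MET, the receptor of hepatocyte growth factor (0.081), the transglutaminase TGM2 (0.0897) and the lysyl oxidase relative LOXL4 (0.142). MET was at 12.26 to 12.50 in clone 8, 12.35 to 12.47 in clone 7, 12.25 to 12.31 in mock and 11.18 to 11.42 in wild-type cells.

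LTBP1 was nearest to PITPNC1, a phospholipid transfer protein (0.0791), ATRNL1 (0.0945) and the peptidase CPE (0.0966). PITPNC1 was at 9.06, 9.62 and 8.71 in clone 8 and 8.84, 8.84 and 9.40 in clone 7, so that it split the clone arrays as LTBP1 did. LTBP2 was nearest to MCC (0.0792), TP53I3, a p53-induced oxidoreductase (0.0823), and CLN8 (0.0842). MCC was at 8.94 to 8.98 in clone 8, 8.88 to 8.93 in clone 7, 8.41 to 8.51 in mock and 8.29 to 8.48 in wild-type cells, with the clones above both controls. All 12 points of such a pattern share the arrays and their normalization.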

How the data were processed

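RNA of 12 A172 cultures was hybridized to GeneChip Human Gene 1.0 ST arrays, 3 per group. The authors deposited normalized log2 expression levels of 33297 probe sets. The submitters' processing notes name Partek. How the levels were normalized and summarized is not stated in the sources used here. The levels were used as deposited, with 0 missing values, array medians of 8.60 to 8.67 and interquartile ranges of 3.13 to 3.36. Of the probe sets, 19460 carried 1 gene symbol in the platform annotation, 1754 several and 12083 none listed. Those with 1 symbol were kept, 19429 of which matched RefSeq by Entrez number, and for 769 genes the probe set with the highest mean of the 12 arrays was taken, which left 18417 genes. The number of arrays limits the precision.

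Group means were fitted with limma (version 3.58.1, R 4.3.3) on all 12 arrays, with Benjamini-Hochberg adjustment over all genes and the limits of the study (adjusted p under 0.05 and at least 1.5-fold). The mean of both clones weighted each clone equally. The test was tested on simulated data with 200 changed genes. Alternatives were quantile normalization, median centring, leaving out genes in the lowest 25% of levels, the mean of all probe sets, a trended robust fit, array weights, only the arrays compared, the replicate number as a block, and leaving out each array in turn. Leaving out clone 7 replicate 3 and clone 8 replicate 3 together was added after seeing the data.

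Named were the 9 genes, EMC10, per pathway list the genes called and the 3 with the largest difference past the adjusted p in the clones against mock and in mock against wild-type, and the 3 genes most like a gene spanning at least log2 0.585. The 9 genes and the lists were chosen with earlier results of these data known.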

Additional observations from a re-analysis of the deposited data

How the results depend on the processing

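Among the 9 genes, the changes that passed the adjusted p under each of 21 alternatives were LTBP2 and TGFBR2 in the clones against mock, SMAD3, TGFB2 and TGFBR2 in mock against wild-type, LTBP2, SMAD3, TGFB2 and TGFBR2 in the clones against wild-type, and LTBP2 in each clone against mock. With array weights, the genes called were 205 in the clones against mock (134 without weights), 346 in clone 7 against mock (129) and 201 in mock against wild-type (124), and of the 9 genes 1 was called in the clones against mock (0) and 2 in clone 8 against mock (1). With only the arrays compared, 89 genes were called in clone 8 against mock (140) and 200 in mock against wild-type (124). Without clone 7 replicate 3 and clone 8 replicate 3, 399 genes were called in clone 7 against mock, 379 in clone 8 against mock, 617 in clone 8 against clone 7 (0) and 199 in mock against wild-type, and in clone 8 against clone 7 TGFB1 was at -0.1028 and LTBP1 at 0.5534 (0.1004). These arrays were picked for lying apart from their own clone, so these counts are no test of a clone difference. Signs turned only in differences under 0.1 on the log2 scale, other than LTBP1 in clone 8 against clone 7. Quantile normalization gave 0.0056 for SMAD2 in clone 7 against mock (-0.0041), 0.0356 for TGFB1 in clone 8 against clone 7 (-0.0077) and 0.0107 for SMAD2 in the clones against wild-type (-0.0198). TGFBR1 in clone 8 against mock (0.0256) was -0.0141 with array weights and -0.0214 without the 2 arrays. SMAD2 in mock against wild-type (0.0616) was -0.0453 as a mean of probe sets, and LTBP1 there (0.0018) was -0.0064 with array weights. With 1 array left out, the genes called ranged from 107 to 178 in the clones against mock, 89 to 277 in clone 7 against mock (most without clone 7 replicate 3), 88 to 277 in clone 8 against mock (fewest without mock replicate 2, most without clone 8 replicate 3), 96 to 153 in mock against wild-type, 228 to 342 in the clones against wild-type and 0 to 0 in clone 8 against clone 7. Of the 9 genes, 0 to 1 were called in the clones against mock (LTBP2 at 0.59 without mock replicate 1), 0 to 2 in clone 8 against mock and 2 to 3 in the clones against wild-type. The log2 differences then ranged from -0.1016 to 0.3324 for LTBP1, -0.0712 to 0.0422 for SMAD7 and -0.0627 to 0.042 for TGFB1 in clone 8 against clone 7, from -0.0237 to 0.0367 for LTBP1 in mock against wild-type, from 0.0152 to 0.1096 for SMAD2 in mock against wild-type, from -0.0663 to 0.0295 for SMAD2 in the clones against wild-type, from -0.0299 to 0.0254 for SMAD2 in clone 7 against mock, and from -0.0214 to 0.0902 for TGFBR1 in clone 8 against mock. The replicate numbers share only a number: 4 of 18 same-numbered pairs correlated over 0.1 (-0.832 to 0.446), and 2 of 12 arrays correlated best with their own number. With the replicate block, 120 genes were called in the clones against mock, 113 in clone 7 against mock, 111 in clone 8 against mock, 0 in clone 8 against clone 7, 107 in mock against wild-type and 260 in the clones against wild-type, and TGFBR2 in clone 7 against mock had an adjusted p of 0.0601. The causes of these shifts were not tested.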
